A study of Ovis aries with 7 samples.

Results

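The AMPA receptor subunits are the 4 genes GRIA1, GRIA2, GRIA3 and GRIA4, which were picked by symbol from the 26479 features of the series. In the files their identifiers were ENSOARG00020017612 for GRIA1, ENSOARG00020017749 for GRIA2, ENSOARG00020022286 for GRIA3 and ENSOARG00020012341 for GRIA4. Their RNA was counted in single nuclei of the anterior striatum of OVT73 sheep, a transgenic model of Huntington's disease, and of control sheep, all 5 years old. OVT73 sheep carry a full-length human HTT cDNA with an expanded polyglutamine tract, placed under human HTT upstream sequence, beside their own HTT genes. Controls lacked the transgene, and both groups held both sexes. The 12 sheep, 6 per group, gave 7 droplet libraries. The 3 OVT73 libraries each pooled 2 sheep, control 1 and control 2 held 1 sheep each, and control 3 and control 4 pooled 2 each. The library was the replicate, so a p-value measures the spread between libraries, some of which are averages of 2 animals. The labels mark the groups only by a prefix in the animal numbers, HD for OVT73 and HC for control.

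AMPA receptors are glutamate-gated cation channels that carry most fast excitatory transmission in the brain. Each channel is built of 4 subunits, GluA1 to GluA4, encoded by GRIA1 to GRIA4. Editing of the GRIA2 transcript by ADARB1 changes an amino acid in the pore, and channels that hold edited GluA2 pass little calcium, so the share of GRIA2 among the subunits is a usual measure of a cell's receptor make-up. In the striatum, medium spiny neurons (MSN) receive cortical and thalamic glutamate input through these receptors, and interneurons, oligodendrocyte precursor cells (OPC) and astrocytes express them in other proportions.

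The files held 35272 barcodes, and 32599 nuclei remained after filters on genes and mitochondrial RNA and removal of the highest 4% of doublet scores. Of these, 30021 (92.1%) lay in 12 classes named from marker genes. Levels are given in CPM, the UMIs (unique molecular identifiers) of a gene scaled to a fixed total of 1000000 UMIs of all genes in the same class and library. The libraries held 20887378 to 70473426 UMIs, and library medians per nucleus ran from 2222 to 2561 UMIs for OVT73 and from 1862.5 to 2156.5 for control, with no overlap. A total of 159 barcode sequences occurred in more than 1 library. The classes carried their markers, with 2 limits. DRD1 was not among the named features used here, so the D1 MSN class rested on TAC1, EBF1 and RELN. SLC18A3 was at 0 in the cholinergic class, where CHAT and SLC5A7 were at 500.1 and 459.5 CPM. A cluster led by DTHD1 had 9 astrocyte markers raised. It was kept apart from the astrocyte class by choice and is called by that gene. It held 1055 nuclei beside 1068 in the astrocyte class, so astrocyte values below are those of the latter alone. UMIs are not scaled to gene length, so a level was compared between classes or groups, and the share of a subunit among the UMIs of all 4 does not give its share of molecules.

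Among the 10 tested classes GRIA4 was highest in PV/Th interneurons and next in OPC, both above the MSN classes. PV/Th interneurons, a class of inhibitory cells marked by HS3ST2 and PTHLH, held 10890 ± 1284 CPM of GRIA4 (SD, n = 7 libraries), with a lowest library at 9172, a median of 10940 and a highest at 12480. OPC stood at 5264 ± 543 CPM, with libraries from 4639 to 6079 around a median of 5301. D2 MSN held 3341 ± 353 CPM and D1 MSN 3183 ± 405 CPM, and eccentric MSN, a minor class marked by OTOF and FOXP2, held 2144 ± 439 CPM. No library of PV/Th interneurons reached down to the OPC range, and no OPC library reached down to the MSN ranges. Within libraries, GRIA4 was 2.07-fold higher in PV/Th interneurons than in OPC (log2 difference 1.05 ± 0.15, SD, n = 7, exact two-sided sign-flip permutation p = 0.0156, the smallest that 7 libraries allow, adjusted p = 0.0268 over 36 comparisons of neighbouring classes). It was 1.58-fold higher in OPC than in D2 MSN (0.66 ± 0.17 on the log2 scale, exact permutation p = 0.0156, adjusted p = 0.0268). Astrocytes, oligodendrocytes, microglia and the DTHD1 cluster held 29.6 to 75.9 CPM, and neighbours in that order did not differ beyond their spread (exact permutation adjusted p = 0.117 to 0.980).

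GRIA1, the subunit best known from activity-dependent insertion at synapses, was high in MSN, PV/Th interneurons and neuroblasts, and also well above the other glia in astrocytes. The level was 2798 ± 309 CPM in D2 MSN, 2737 ± 374 in PV/Th interneurons and 2699 ± 301 in D1 MSN (SD, n = 7). The ranges of these classes overlapped, and the neighbours in this order did not differ beyond their spread (exact permutation adjusted p = 0.776 and 0.976). Eccentric MSN held 2290 ± 195 CPM, and neuroblasts, the DCX-positive immature neurons, held 2117 ± 582 CPM with libraries from 1463 to 3196. Astrocytes held 1278 ± 205 CPM, with a lowest library at 968, a median of 1195 and a highest at 1521. With UMIs pooled over libraries they stood at 48.7% of the MSN level. OPC stood at 633 ± 42.1 CPM, and oligodendrocytes and microglia at 21.3 and 29.97 CPM. The DTHD1 cluster, which also had astrocyte markers raised, held 610.7 ± 180.8 CPM.

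GRIA2 was at the same level in all 3 MSN classes within the spread, at 1345 ± 88.4 CPM in D2 MSN, 1344 ± 109 in eccentric MSN and 1334 ± 80.3 in D1 MSN (exact permutation adjusted p = 1.00 and 0.976 for the neighbouring pairs). OPC were next at 1082 ± 117 CPM, and stood at 82.0% of the MSN level with UMIs pooled over libraries. PV/Th interneurons held 574 ± 82.7 CPM, with libraries from 436.1 to 656.5, all below every OPC and MSN library. Astrocytes were low and uneven, with 3.27 CPM in control 1, where 1 UMI was counted, a median of 116 CPM and 285 CPM in control 2.

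GRIA3 was the one subunit that oligodendrocytes, the myelinating cells, held at a neuronal level. They held 937 ± 53.1 CPM of GRIA3, with a lowest library at 878, a median of 920 and a highest at 1019, against 1053 ± 70.02 in D1 MSN and 1041 ± 72.6 in D2 MSN (SD, n = 7). Oligodendrocytes lay 0.15 ± 0.095 below D2 MSN and 0.20 ± 0.13 above eccentric MSN on the log2 scale (exact permutation adjusted p = 0.0268 for both). OPC held 627 ± 63.6 CPM and PV/Th interneurons 287 ± 78.8 CPM, the latter 2.25-fold lower (adjusted p = 0.0268, exact permutation test).

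Free RNA in droplets puts some UMIs of abundant neuronal genes into glia, so the level of each subunit in glia was set beside that of 8 of the 10 MSN markers, those at 100 CPM or more in MSN. Both were taken from UMIs pooled over libraries. In oligodendrocytes those markers stood at 0.839% to 13.4% of their MSN level, with a median of 6.61%. GRIA1 at 0.779%, GRIA2 at 6.51% and GRIA4 at 1.36% of the MSN level did not exceed that range, whereas GRIA3 stood at 88.6%. The markers spread widely, so a place within their range does not show that a subunit's UMIs came from free RNA. Their source was not tested. A GRIA3 UMI was seen in 70.2% of oligodendrocyte nuclei, against 4.05% of microglia. Thinned to 1000 UMIs a nucleus, which left out shallower nuclei and kept 13430 of 15149 oligodendrocytes and 2281 of 2790 microglia, these shares were 55.3% and 2.87%. In astrocytes the markers ranged from 1.12% to 38.2% of the MSN level, and GRIA1 alone was above that range, at 48.7%, while GRIA2 at 7.81%, GRIA3 at 9.52% and GRIA4 at 0.822% were within or below it. In microglia all 4 subunits lay at 1.08% to 3.70%, inside the marker range of 0.844% to 11.8%, and no microglial level is read from them. In OPC the markers ranged from 2.57% to 16.1%, and all 4 subunits were above that range, at 23.6% for GRIA1, 82.0% for GRIA2, 60.8% for GRIA3 and 158% for GRIA4. In PV/Th interneurons the markers ranged from 6.08% to 92.5%, and GRIA2 at 43.3% and GRIA3 at 26.1% lay inside that range. All 4 subunits lay inside the marker range in neuroblasts (3.08% to 96.4%) and the DTHD1 cluster (1.12% to 23.8%), with GRIA1 at 81.9% and 22.3%. Thinned to 1000 UMIs, 98.6% of OPC had a UMI of GRIA4 and 64.8% one of GRIA2, against 98.3% and 37.7% of PV/Th interneurons.

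GRIA3 was present in each of the 4 oligodendrocyte clusters and lower in one of them. The cluster led by MMRN1 and ENPP6, a gene of newly formed oligodendrocytes, held 607 ± 55.5 CPM, with libraries from 534.5 to 689.3. The other clusters held 1005 ± 51.9, 939 ± 46.7 and 1071 ± 54.6 CPM, and no library of theirs was below 879. ENPP6 itself was at 399 CPM in the first cluster and at 17.1 to 46.3 CPM in the others. The clusters were formed without the glutamate receptor genes, and no test was made between them.

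**Figure D1:**
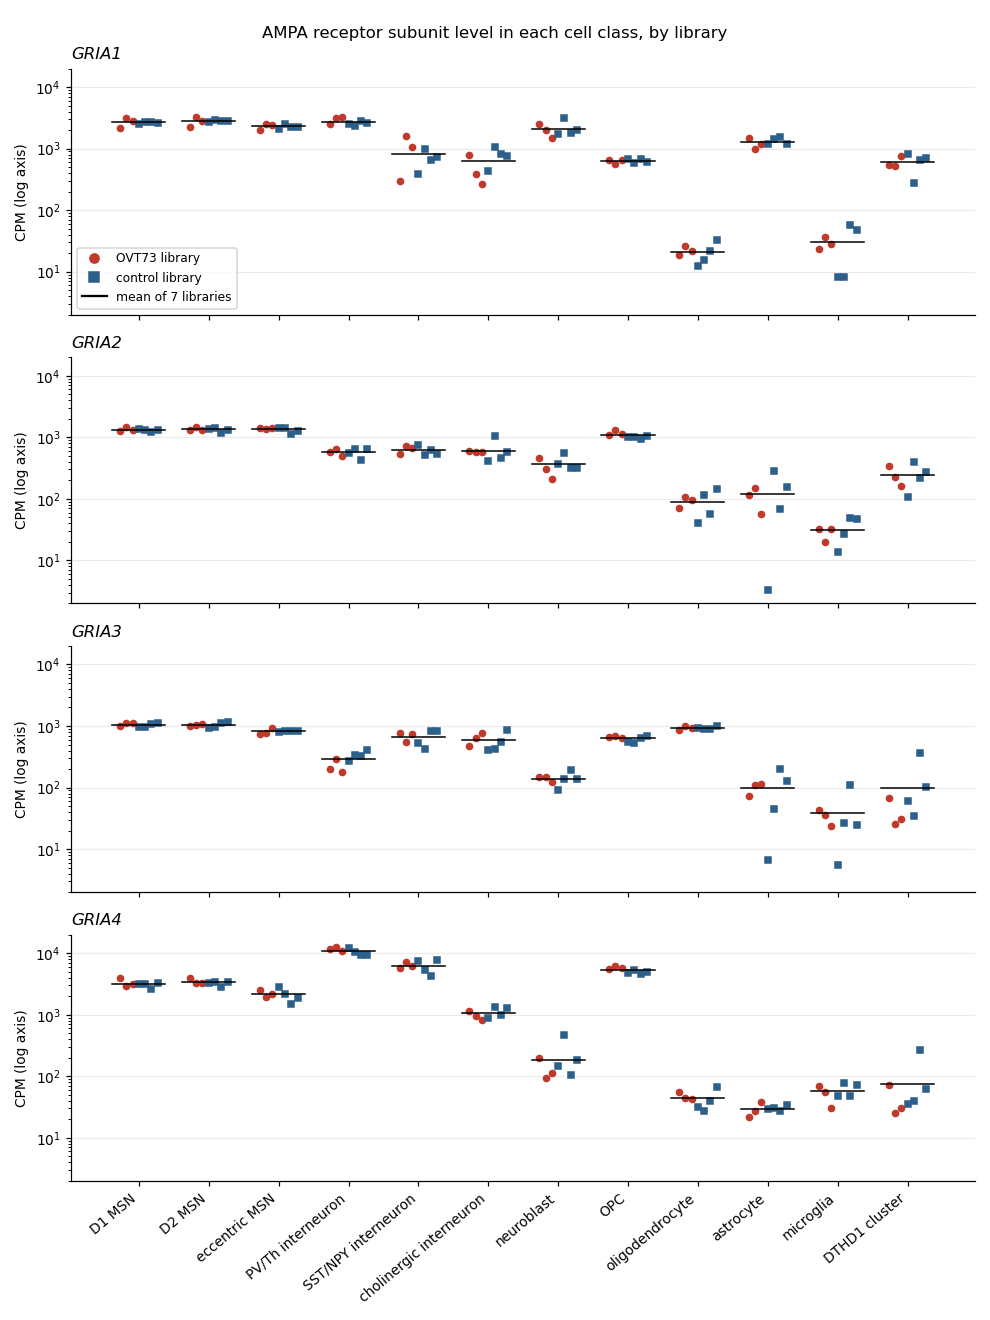
Level of GRIA1, GRIA2, GRIA3 and GRIA4 (CPM, log axis) in 12 cell classes. Each point is 1 library, circles for OVT73 and squares for control, and the line is the mean of 7 libraries. GRIA4 is at 9172 CPM or more in every PV/Th interneuron library, and GRIA3 is at 878 to 1019 CPM in oligodendrocytes, where the other subunits are low.

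The subunits therefore entered the pool in different proportions in each class. In MSN (D1 and D2 summed) the UMIs of the 4 genes were split as 32.7% GRIA1, 16.0% GRIA2, 12.5% GRIA3 and 38.8% GRIA4. In PV/Th interneurons the split was 18.9%, 3.98%, 2.03% and 75.04% in the same order. In OPC it was 8.40%, 14.2%, 8.27% and 69.1%, and in astrocytes 84.1%, 7.58%, 6.29% and 2%. Oligodendrocyte UMIs were 86.0% GRIA3. The share of GRIA4 was thus higher in PV/Th interneurons and OPC than in MSN, and that of GRIA2 was lower in PV/Th interneurons than in OPC. The share of GRIA1 in neuroblasts was 75.6%, near that in astrocytes. Since UMIs are not per length, these shares are compared between classes only.

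**Figure D2:**
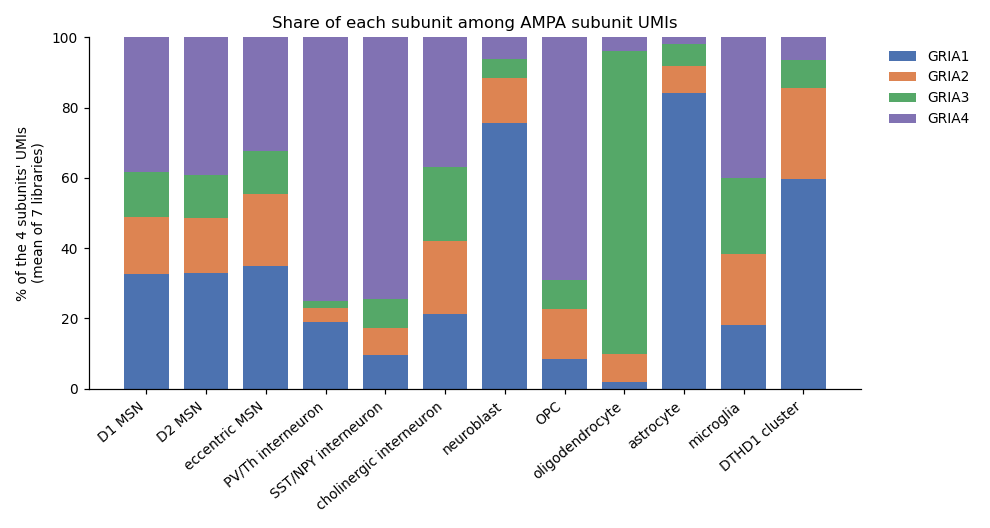
Percent of all UMIs of the 4 AMPA receptor subunits that each subunit took, by cell class, as the mean of 7 libraries. GRIA4 takes 75.04% in PV/Th interneurons and 69.1% in OPC, GRIA3 takes 86.0% in oligodendrocytes, and GRIA1 takes 84.1% in astrocytes. The microglia column rests on 688 UMIs.

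Ratios to GRIA2 were compared within libraries between MSN, PV/Th interneurons, OPC and astrocytes. Of the 9 comparisons without astrocytes, 8 passed an adjusted p of 0.05 by the exact sign-flip permutation test, with adjustment over 18. The 9 with astrocytes are read with the limit that GRIA2, GRIA3 and GRIA4 were there within or below the range of the MSN markers. In PV/Th interneurons GRIA2 and GRIA3 were inside that range as well, and the part of free RNA in the PV/Th folds was not tested. The GRIA4 to GRIA2 values in astrocytes are not read. The GRIA4 to GRIA2 ratio was 7.86-fold higher in PV/Th interneurons than in MSN (log2 difference 2.97 ± 0.31, SD, n = 7) and 2.01-fold higher in OPC than in MSN (1.007 ± 0.15), each in 7 of 7 libraries with an exact permutation adjusted p of 0.0234. PV/Th interneurons exceeded OPC 3.91-fold (1.97 ± 0.26, same exact p). These classes were ordered the same way in every library.

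The GRIA1 to GRIA2 ratio gave another order. It was 2.34-fold higher in PV/Th interneurons than in MSN (log2 difference 1.23 ± 0.29) and 3.48-fold lower in OPC than in MSN (1.80 ± 0.28), and PV/Th interneurons exceeded OPC 8.13-fold (3.02 ± 0.38), each in 7 of 7 libraries with an exact permutation adjusted p of 0.0234. In astrocytes the measured GRIA1 to GRIA2 ratio was above that of MSN in 7 of 7 libraries (log2 difference 3.02 ± 1.93). No fold is drawn from it, since GRIA2 there was low and uneven between libraries and lay within the wide marker range. The part of free RNA was not tested. Control 1 gave a single GRIA2 UMI in astrocytes, and without that library the log2 difference between astrocytes and MSN was 2.36. When the receptor genes were kept among the clustering genes, the GRIA1 to GRIA2 difference between astrocytes and PV/Th interneurons fell from 1.79 to 0.42 on the log2 scale and was no longer past the threshold (exact permutation adjusted p = 0.414).

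The GRIA3 to GRIA2 ratio moved least. It was 1.6-fold higher in MSN than in PV/Th interneurons (log2 difference 0.68 ± 0.35) and 1.35-fold higher in MSN than in OPC (0.43 ± 0.08). The other 4 comparisons of this ratio did not pass the threshold (exact permutation adjusted p = 0.131 to 0.594). With the receptor genes kept among the clustering genes, PV/Th interneurons minus OPC went from -0.25 to -0.54 on the log2 scale and passed it.

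D1 MSN and D2 MSN, the neurons of the direct and indirect pathways, were close in all 4 subunits. GRIA4 was 0.07 ± 0.047 higher in D2 than in D1 MSN on the log2 scale, in 7 of 7 libraries (exact sign-flip permutation p = 0.0156, adjusted p = 0.0625 over the 4 subunits). GRIA1 was 0.05 ± 0.048 higher in D2 MSN in 6 of 7 libraries (exact permutation p = 0.0469, adjusted p = 0.0938). GRIA2 and GRIA3 differed by 0.01 and -0.02. Among the 36 neighbouring classes the same GRIA4 difference had an adjusted p of 0.0268 (exact permutation test), so its side of the threshold depended on the family of tests. The difference between D2 and D1 MSN was not shown to differ between OVT73 and control for any subunit (exact permutation p = 0.143 to 0.886 over the 35 choices of 3 libraries, adjusted p = 0.457 to 0.886).

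The study was designed to compare OVT73 with control sheep class by class. No subunit passed the threshold in any of the 10 classes with enough nuclei in every library. The adjusted p ranged from 0.690 to 1.00 over 40 comparisons (edgeR quasi-likelihood test, Benjamini-Hochberg adjustment over all genes of the class). At an unadjusted p under 0.05 edgeR gave 3 comparisons and DESeq2 gave 4, and DESeq2 also called 0 after adjustment. The 3 of 40 (7.5%) stood beside 6.73% of all genes tested in OPC, 3.84% in PV/Th interneurons and 4.88% over all classes. After adjustment edgeR called 0% of the genes tested in D1 MSN, D2 MSN, PV/Th interneurons, neuroblasts, oligodendrocytes, astrocytes, microglia and the DTHD1 cluster, 0.0136% in eccentric MSN (UBE2U) and 0.0111% in OPC (CPT2), both named here after their values were seen. The OVT73 libraries had more UMIs per nucleus, as given above, and the part of depth in these values was not tested. In bulk sums of a class, RNA per nucleus and the mix of nuclei within the class cannot be told apart.

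The nearest to a difference were GRIA2 and GRIA4 in OPC, both higher in OVT73. GRIA2 stood at 1125, 1423 and 1185 normalised CPM in the 3 OVT73 libraries and at 1006, 1049, 902.9 and 1031 in the 4 controls. Every OVT73 library was above every control, with OVT73 2 far above the others. The log2 fold change was 0.32 (SE 0.11, edgeR p = 0.0105, Benjamini-Hochberg adjusted p = 0.690, exact permutation p = 0.0286, the smallest that 35 splits allow). GRIA4 stood at 5658, 6602 and 5923 normalised CPM in OVT73 and at 4639, 5438, 4379 and 4906 in controls. Again the groups did not overlap, by a small margin between OVT73 1 and control 2. The log2 fold change was 0.32 (SE 0.10, edgeR p = 0.00702, Benjamini-Hochberg adjusted p = 0.690, exact permutation p = 0.0571). Libraries of the OVT73 group lay above all controls for 4.25% of the genes tested in OPC, and for 2 of the 4 subunits. OPC was singled out for the values of these subunits, so no excess over other genes is read from these shares. Of all 40 comparisons of a subunit in a class, 2 had every OVT73 library above every control, and both were these. In 0 of the 40 did every OVT73 library lie below every control.

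The other subunits in OPC moved less. GRIA3 stood at 679, 752 and 658 normalised CPM in OVT73 and 539, 545, 610 and 680 in controls, with overlap, and its log2 fold change was 0.23 (SE 0.11). GRIA1 stood at 688, 616 and 673 against 663, 605, 632 and 615, a log2 fold change of 0.07. Since GRIA2 and GRIA4 were higher together, the GRIA4 to GRIA2 ratio in OPC was level between the groups, at 2.29 ± 0.065 in OVT73 and 2.28 ± 0.072 in controls on the log2 scale (SD, n = 3 and 4, exact permutation p = 0.800). Median UMIs per OPC nucleus were 4636, 3788 and 3523.5 in OVT73 and 3543, 3882, 2584 and 2966 in controls. The sum of all 10 MSN markers in OPC ranged from 1764 to 2061 CPM in OVT73 and from 1542 to 2264 CPM in controls, with 4 of 10 markers higher in OVT73. Without OVT73 2 the log2 fold change of GRIA2 was 0.21.

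In PV/Th interneurons GRIA3 was the subunit with the largest fold change, and it was lower in OVT73. It stood at 204.2, 316.4 and 188.9 normalised CPM in OVT73 and at 269.2, 357.9, 320.6 and 413.4 in controls, so OVT73 2 lay inside the control range. The log2 fold change was -0.52 (SE 0.20, edgeR p = 0.0183, Benjamini-Hochberg adjusted p = 0.997, exact permutation p = 0.114), and -0.79 without OVT73 2. As a ratio to GRIA2, GRIA3 was 0.61 lower in OVT73 on the log2 scale, with no overlap between libraries (exact permutation p = 0.0571, adjusted p = 0.956 over 30 ratios). For levels of single genes in PV/Th interneurons, all OVT73 libraries lay below all controls for 2.15% of genes and for 0 of the 4 subunits. No such share was taken over ratios of other genes. GRIA1 and GRIA4 in the same cells had fold changes above 0, at 0.29 (SE 0.14) and 0.26 (SE 0.13) on the log2 scale. GRIA4 stood at 12190, 13680 and 11340 normalised CPM in OVT73 and 11900, 11010, 9246 and 9385 in controls, with overlap. The sum of the 10 MSN markers in these cells ranged from 1785 to 2335 CPM in OVT73 and from 1513 to 5940 CPM in controls, with 1 of 10 markers higher in OVT73, and their part in the GRIA3 difference was not tested. No ratio in any class passed the threshold between OVT73 and control (0 of 30, exact permutation test with Benjamini-Hochberg adjustment).

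The 3 MSN classes showed the same sign for all 4 subunits, with 12 of 12 log2 fold changes above 0, from 0.04 to 0.22. The classes share libraries, so these values are not independent. Of all genes tested, 45.45% were above 0 in D1 MSN, 45.94% in D2 MSN and 48.35% in eccentric MSN. With library size alone, GRIA1 and GRIA3 in D2 MSN and GRIA3 in eccentric MSN fell below 0. In D1 MSN GRIA1 stood at 2316, 3425 and 2855 normalised CPM in OVT73 and 2447, 2757, 2515 and 2664 in controls, a log2 fold change of 0.14 (SE 0.13). The OVT73 libraries held both the lowest and the highest value. GRIA4 in D1 MSN stood at 4175, 3152 and 3113 against 3046, 3209, 2424 and 3317, a log2 fold change of 0.21 (SE 0.15). That value rested on OVT73 1, and it was 0.06 without this library. Without OVT73 2 the fold change of GRIA1 in D1 MSN was close to 0. GRIA2 in D1 MSN stood at 1358, 1611 and 1321 against 1321, 1314, 1142 and 1325, with a log2 fold change of 0.17 (SE 0.11), and 0.07 without OVT73 2. GRIA3 in D1 MSN stood at 1055, 1194 and 1109 against 948.4, 964, 994.1 and 1137, a log2 fold change of 0.147 (SE 0.105). This value ranged from 0.0996 to 0.2075 with each library left out in turn. In D2 MSN the log2 fold change was 0.22 (SE 0.13) for GRIA4, 0.16 for GRIA2, 0.11 for GRIA1 and 0.09 for GRIA3. It was 0.13 for GRIA4 without OVT73 1, and 0.07 for GRIA2 and -0.07 for GRIA1 without OVT73 2. For GRIA3 in D2 MSN it ranged from 0.036 to 0.155 with each library left out.

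The sign of the small fold changes depended on scaling. Without TMM factors the median log2 fold change over all genes tested moved from -0.025 to -0.127 in D1 MSN, from -0.022 to -0.131 in D2 MSN and from -0.016 to -0.107 in OPC, so these values are read against the median of the class. Single comparisons were kept where the mean level was at least 250 CPM, a limit chosen after the levels were seen. Of these 25 comparisons 20 were above 0, and 15 were with library size alone. Over all 40 comparisons 24 were above 0, so of the 15 at lower levels most were not. GRIA1 and GRIA3 in D2 MSN, GRIA3 in eccentric MSN, GRIA2 in PV/Th interneurons and GRIA1 in OPC were the ones that went below 0. GRIA3 in oligodendrocytes had a log2 fold change of 0.09 (SE 0.11) and GRIA1 in astrocytes -0.10 (SE 0.17), neither larger than its error.

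**Figure D3:**
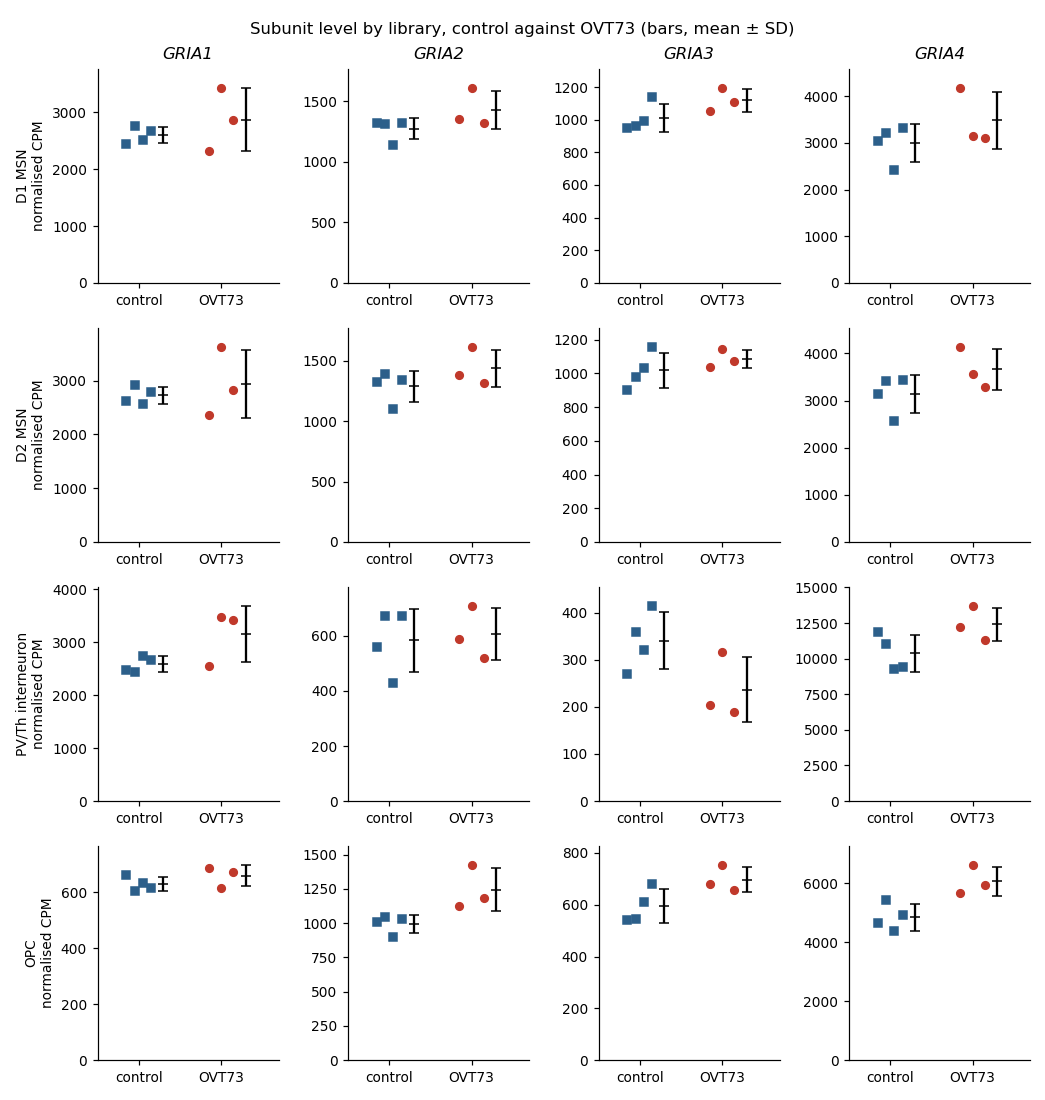
Normalised CPM of the 4 subunits (columns) in D1 MSN, D2 MSN, PV/Th interneurons and OPC (rows of panels), with control libraries as squares and OVT73 libraries as circles, each y axis from 0. Bars are the mean ± SD of 4 control or 3 OVT73 libraries. The groups overlap in all panels except GRIA2 and GRIA4 in OPC.

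**Figure D4:**
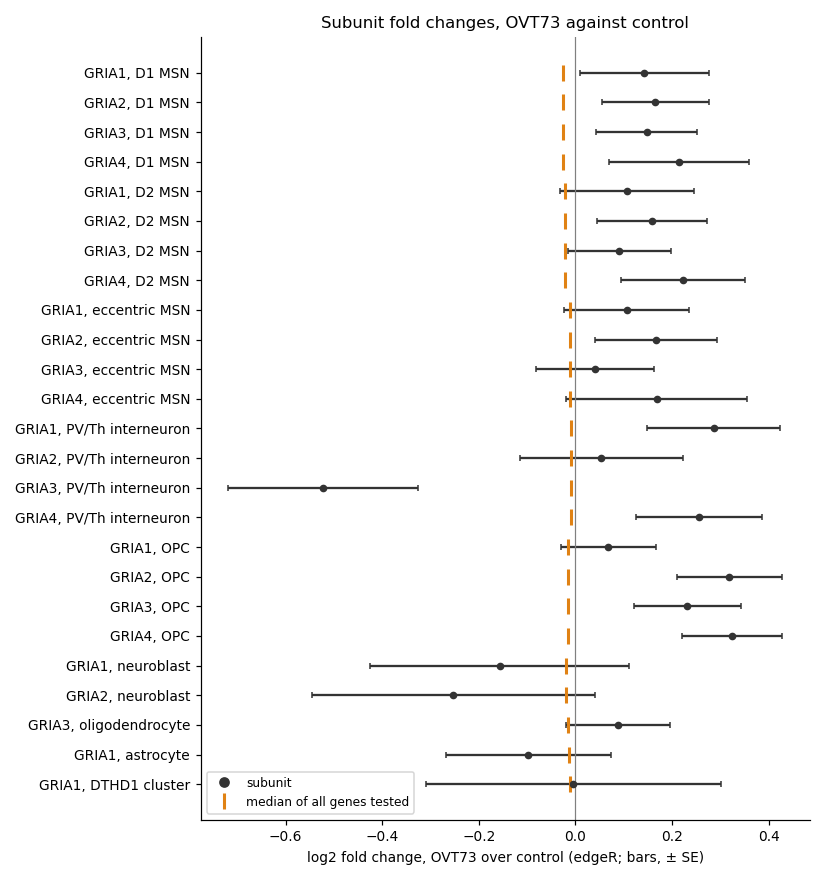
Log2 fold change of OVT73 over control with its SE (edgeR) for the 25 comparisons of a subunit at 250 CPM or more. The orange marks are the median of all genes tested in the class. GRIA2 and GRIA4 in OPC sit at 0.32 and GRIA3 in PV/Th interneurons at -0.52, and none passed the adjusted threshold.

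AMPA receptors work with partner proteins, and 32 genes in 4 lists were followed beside the subunits. The lists were 13 auxiliary subunits that sit in the receptor complex, 7 genes of assembly and surface delivery, 10 scaffolds and clustering proteins of the synapse and the 2 RNA editing enzymes ADAR and ADARB1. Of the auxiliary subunits, SHISA9 (also called CKAMP44) was at 2186 ± 247 CPM in D1 MSN and 2225 ± 263 in D2 MSN, and highest in SST/NPY interneurons at 2592 CPM. SHISA6 was highest in PV/Th interneurons at 517 CPM, as were the transmembrane regulatory proteins CACNG3 at 204 CPM, CACNG7 at 48.0 CPM and CACNG8 at 27.9 CPM. CACNG2, which encodes stargazin, was highest in neuroblasts at 186 CPM, CACNG4 in OPC at 60.3 CPM and GSG1L in cholinergic interneurons at 650 CPM. CNIH3, CNIH2 and CACNG5 were also highest in PV/Th interneurons, at 96.5, 2.5 and 2.13 CPM. SHISA7 was highest in D2 MSN at 32.5 CPM and SHISA8 in microglia at 3.28 CPM. For CACNG3, SST/NPY interneurons were next at 187 ± 134 CPM, within the spread. The same held for CACNG7, with cholinergic interneurons next at 32.9 ± 9.5 CPM, and for CACNG8, with neuroblasts next at 20.35 ± 12.1 CPM. The spread also reached the next class for CNIH3 (microglia, 77.1 ± 23.9 CPM) and CNIH2 (neuroblasts, 1.95 ± 3.36). So it did for CACNG5 (D1 MSN, 1.99 ± 0.85), SHISA8 (PV/Th interneurons, 1.98 ± 1.57) and SHISA7 (D1 MSN, 31.7 ± 7.62). CACNG2 (PV/Th interneurons, 148 ± 37.4), SHISA6 (OPC, 354 ± 39.6) and GSG1L (SST/NPY interneurons, 305 ± 139) were alike in this. For SHISA9, D2 MSN were next and within the spread. Partner levels were not tested between classes.

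Scaffolds and editing enzymes had other orders. GRIP1, which binds the tails of GluA2 and GluA3, was highest in PV/Th interneurons at 1890 CPM, against 442 ± 40.4 in D1 MSN and 634 ± 44.7 in D2 MSN. NSF, the membrane fusion ATPase that binds GluA2, was at 682 ± 31.6 CPM in D1 MSN and 677 ± 37.5 in D2 MSN. DLG4, which encodes PSD-95, was at 77.9 ± 12.1 CPM in D2 MSN and 71.9 ± 10.0 in D1 MSN. Both genes were highest in these 2 classes, which were within the spread of each other. DLG1, which encodes SAP97 and binds GluA1, was highest in oligodendrocytes at 687 CPM. The lipase ABHD6 was also highest there, at 121 CPM, and CPT1C, an endoplasmic reticulum partner, in OPC at 68.0 CPM. For CPT1C, D2 MSN were next at 62.6 ± 8.2 CPM, within the spread. ADARB1, the enzyme of the GRIA2 pore site, stood at 176 CPM in eccentric MSN, 150 CPM in D1 MSN, 86.0 CPM in PV/Th interneurons, 55.1 CPM in OPC and 16.7 CPM in astrocytes.

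**Figure D5:**
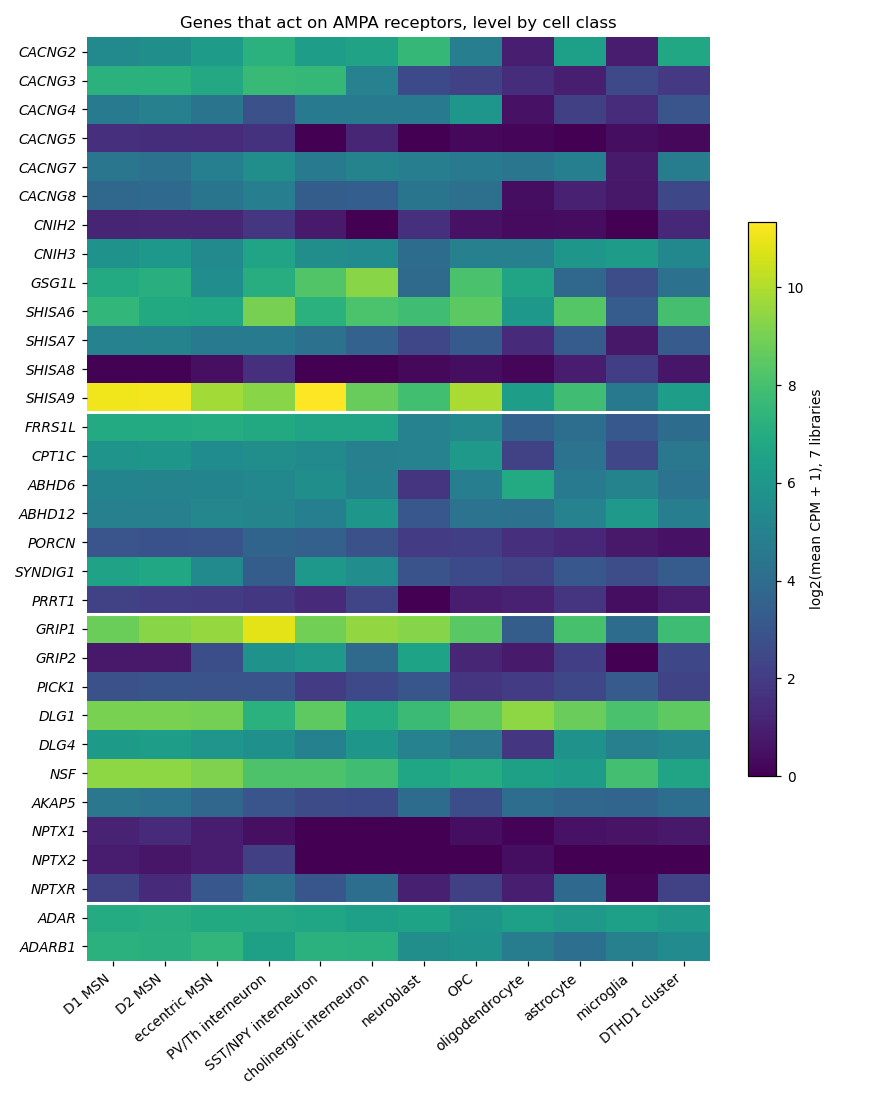
Level of 32 genes that act on AMPA receptors in 12 cell classes, as log2(mean CPM + 1) over 7 libraries. White lines part the auxiliary subunits, the genes of assembly and surface delivery, the scaffolds and the editing enzymes from top to bottom. SHISA9 is high in MSN, GRIP1 in PV/Th interneurons, GSG1L in cholinergic interneurons and DLG1 in oligodendrocytes.

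No partner gene passed the threshold between OVT73 and control. Over the 4 lists, 31 of 32 genes passed the filter on low counts in at least 1 class, which gave 180 comparisons. edgeR called 0 of these after Benjamini-Hochberg adjustment and 9 at an unadjusted p under 0.05, of which 6 were higher in OVT73, and DESeq2 called 0 and 7. The 9 of 180 were 5%, against 4.88% of all genes over the 10 classes. In OPC the median log2 fold change was 0.28 for the 4 subunits, 0.02 for the 9 auxiliary subunits tested, 0.38 for the editing enzymes and -0.016 for all genes tested. In D1 MSN it was 0.16 for the subunits, 0.03 for the 11 auxiliary subunits tested, 0.22 for the editing enzymes and -0.025 for all genes. The assembly and scaffold lists had medians of 0.07 and 0.01 in OPC and 0.01 and 0.02 in D1 MSN. For the subunits, other classes differed in sign. The median of the subunits was 0.15 in PV/Th interneurons and 0.13 in D2 MSN, 0.14 in eccentric MSN and 0.13 in oligodendrocytes, but -0.20 in neuroblasts, -0.05 in astrocytes, -0.24 in microglia and -0.64 in the DTHD1 cluster, where most subunits were low. The median of the editing enzymes was below 0 in neuroblasts alone, at -0.03. It was 0.04 in PV/Th interneurons, 0.11 in eccentric MSN, 0.15 in microglia and 0.17 in D2 MSN. Oligodendrocytes stood at 0.23, astrocytes at 0.29 and the DTHD1 cluster at 0.34. That list holds 2 genes.

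Among partner genes higher in OVT73, the one with the smallest p is given for D1 MSN, D2 MSN, PV/Th interneurons, OPC and astrocytes. In OPC this was DLG1, at 431.0, 408.8 and 407.5 normalised CPM in OVT73 and 335.4, 367.0, 291.6 and 341.6 in controls, a log2 fold change of 0.31 (SE 0.11, edgeR p = 0.00945, Benjamini-Hochberg adjusted p = 0.690, exact permutation p = 0.0286). In D1 MSN it was ADARB1, at 178.8, 163.3 and 155.5 against 139.1, 128.2, 139.3 and 152.5, a log2 fold change of 0.25 (SE 0.10, edgeR p = 0.0382, Benjamini-Hochberg adjusted p = 0.938, exact permutation p = 0.0571). ADARB1 was also the one in D2 MSN, at 154.9, 145.7 and 157.4 against 133.5, 130.0, 132.8 and 135.6, with a log2 fold change of 0.20 (edgeR p = 0.0458, exact permutation p = 0.0286). Each of these had all OVT73 libraries above all controls, which held for 4.25% of genes in OPC, 3.14% in D1 MSN and 3.13% in D2 MSN. Each gene here and in the next paragraph was picked for its small p between the groups. Separation of its libraries is therefore tied to the pick, and shares over genes that were not picked do not measure it.

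In PV/Th interneurons GRIP1 stood at 2076, 2305 and 2290 normalised CPM in OVT73 and 1944, 1506, 1734 and 1795 in controls, a log2 fold change of 0.35 (SE 0.13, edgeR p = 0.0165, Benjamini-Hochberg adjusted p = 0.997, exact permutation p = 0.0286). Its OVT73 libraries were all above the controls, as for 2.82% of genes in that class. In astrocytes SHISA6 was lower in OVT73, at 154.6, 330.1 and 280.4 against 405.7, 382.6, 372.6 and 433.6, a log2 fold change of -0.66 (SE 0.23, edgeR p = 0.0121, Benjamini-Hochberg adjusted p = 1.00, exact permutation p = 0.0286). Its OVT73 libraries were all below the controls, as for 2.31% of genes. The genes with the smallest p in the other direction were NPTXR in D1 MSN at -0.91 on the log2 scale (edgeR p = 0.0121, Benjamini-Hochberg adjusted p = 0.938, exact permutation p = 0.0571), a low gene at 1.91 to 2.94 normalised CPM in OVT73, and PRRT1 in D2 MSN at -0.76, SHISA6 in PV/Th interneurons at -0.22 and AKAP5 in OPC at -0.81. In astrocytes the gene with the smallest p above 0 was DLG4, at 75.47, 69.34 and 66.11 against 91.28, 39.86, 38.77 and 22.32, with a log2 fold change of 0.55. Of these, NPTXR alone had an edgeR p under 0.05.

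Across the 10 tested classes each subunit had close companions by Pearson's r of log2(mean CPM + 1), ranked over 13407 genes. The genes most like GRIA1 were SRRM3 (r = 0.987), TSPOAP1, TUSC3, GRIK5 and GTF2IRD1. GRIA2 was most like GUCY1A2 (r = 0.981), CAMK4, DPP6, OCA2 and a gene without a symbol, GRIA3 most like CSMD2 (r = 0.971), KHDRBS2, TYRO3, EPB41L4B and AZIN2, and GRIA4 most like DOK6 (r = 0.982), RASGRF1, LINGO1, WTIP and CHL1. Among the subunits the pair GRIA2 and GRIA4 had r = 0.854, GRIA1 and GRIA2 had r = 0.797, and GRIA1 and GRIA3 had r = 0.277. The 10 points share libraries, and the values are a description.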

How the data were processed

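Single-nucleus RNA-seq (10x 3' v3.1) was made from 7 libraries. The authors deposited filtered matrices of raw UMI counts per gene and barcode, made with Cell Ranger 7.0.0 and STAR 2.7.2a on Oar_rambouillet_v1.0 with Ensembl 107, and no normalisation. The paper's methods do not say whether intronic reads were counted. Its library summary lists a larger share of reads mapped to the transcriptome than to exons in every library, which points to intronic reads being counted. Pooled sheep were not separated.

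Nuclei with 200 to 7500 genes and under 5% mitochondrial UMIs were kept, and the highest 4% of doublet scores were removed (an automatic threshold marked 2.4%). With the glutamate receptor and partner genes left out, 3000 variable genes were chosen with scanpy 1.11.5 and reduced to 30 components. A harmony-type correction then aligned the libraries, each of which held a single group. Clusters were communities of a shared-neighbour graph, found with igraph 0.11.9 (20 neighbours, resolution 1.0). A cluster was named where at least 3 markers were raised. The naming limits on doublets and rival classes, and the DTHD1 name, were set after the cluster profiles were seen and before groups were compared. A total of 15 of 27 clusters gave 12 classes.

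UMIs were summed per class and library and tested with edgeR 4.0.16 in R 4.3.3 (glmQLFit robust, glmQLFTest, TMM, filterByExpr, Benjamini-Hochberg over all genes of a class), in the 10 classes with at least 10 nuclei in every library. Nuclei were never replicates. Ratios used log2(UMIs + 0.5). Within-library differences had 128 sign flips and group differences 35 splits. DESeq2 1.42.0, other filters and scalings, equal nuclei, other doublet and clustering settings and leaving out each library were alternatives. The edgeR step was checked on simulated data. Precision is limited by 3 and 4 libraries.

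The members and gene lists were chosen with earlier results of these data known. Partner genes are named where they pass the threshold, have the smallest p in each direction in D1 MSN, D2 MSN, PV/Th interneurons, OPC or astrocytes, or for the class where they are highest. The companions of a subunit are the 5 genes of highest r. Sequences and gene positions are not used here.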

Additional observations from a re-analysis of the deposited data

Results flagged for a closer look

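Control libraries were checked for 1 that lay far from the other 3 (gap over range above Dixon's 95% critical value for 4 samples). This held for 2 of 74 values (2.7%), where chance gives about 1 in 20. GRIA2 in D1 MSN was low in control 3, at 1142 normalised CPM, against 1314 to 1325 in the other controls. GRIA4 in the DTHD1 cluster was high in control 3, at 294.8 normalised CPM. GRIA3 was high in the same cluster and library, at 410.6 normalised CPM. Oligodendrocyte markers summed to 2983 CPM there, against 103 to 695 CPM in the other libraries, and their part in both values was not tested.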

How the results depend on the processing

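None of the 25 comparisons of a subunit at 250 CPM or more passed the threshold between OVT73 and control under any alternative run, and the ratios across classes gave 12 to 14 calls of 18 with a library left out. No paired analysis of the groups was possible. Each library held sheep of a single group, and the labels match no OVT73 library to a control library. The cause of the changes below was not tested. Values are log2 differences in the order named.

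With receptor genes kept in clustering, D2 MSN minus PV/Th was -0.029 for GRIA1, D2 minus eccentric MSN -0.00437 for GRIA2, the GRIA3 to GRIA2 ratio 0.46 for MSN minus astrocyte and 0.020 for OPC minus astrocyte, and OVT73 over control 0.069 for GRIA1 in astrocytes. The DTHD1 cluster did not form there. In the same run GRIA3 for PV/Th minus neuroblast fell from 0.99 to 0.22 and was no longer past the threshold. The GRIA3 to GRIA2 ratio for PV/Th minus OPC, at -0.54, passed it. With no removal by doublet score, the GRIA4 to GRIA2 ratio for MSN minus astrocyte was 2.355 and no longer past the threshold. With the mean over nuclei, PV/Th minus D1 MSN was -0.00336 for GRIA1, eccentric minus D1 MSN -0.014 for GRIA2, and the group difference of D2 minus D1 -0.011 for GRIA4.

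For OVT73 over control without TMM factors, GRIA3 was -0.017 in D2 MSN and -0.042 in eccentric MSN, GRIA1 -0.00602 in D2 MSN and -0.025 in OPC, and GRIA2 -0.00787 in PV/Th. With equal nuclei, eccentric MSN gave -0.022 for GRIA3 and -0.059 for GRIA4, and GRIA1 0.089 in neuroblasts and 0.29 in the DTHD1 cluster. With no filter GRIA1 was 0.013 in neuroblasts, 0.00458 in astrocytes and 0.079 in the DTHD1 cluster.

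Genes called were 2 in D1 MSN, 5 in D2 MSN, 3 in eccentric MSN, 2 in PV/Th, 9 in OPC, 5 in oligodendrocytes, 1 in astrocytes and 1 in microglia with DESeq2. With no filter they were 1 in D2 MSN, 51 in eccentric MSN, 17 in PV/Th, 1 in neuroblasts, 31 in OPC, 1 in oligodendrocytes, 2 in astrocytes, 27 in microglia and 10 in the DTHD1 cluster. Eccentric MSN gave 0 and OPC 2 without TMM, and both gave 0 with equal nuclei. Without TMM the share of genes above 0 went from 45.5% to 27.5% in D1 MSN and from 47.6% to 32.0% in OPC.

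Leaving out 1 library in turn, level comparisons past the threshold ranged from 0 to 23, where 6 libraries allow no p under 0.0312. Levels ranged from -0.014 to 0.081 for GRIA1 D2 MSN minus PV/Th, -0.015 to 0.060 for PV/Th minus D1 MSN, -0.042 to 0.18 for OPC minus DTHD1 cluster, and for GRIA2 from -0.021 to 0.020 for D2 minus eccentric MSN and -0.016 to 0.036 for eccentric minus D1 MSN. Group differences in ratio to GRIA2 ranged from -0.098 to 0.073 (GRIA1), -0.0619 to 0.032 (GRIA3) and -0.12 to 0.20 (GRIA4) in D1 MSN, -0.15 to 0.048, -0.13 to 0.018 and -0.049 to 0.17 in D2 MSN, -0.17 to 0.045 (GRIA1) and -0.053 to 0.16 (GRIA4) in eccentric MSN, and -0.012 to 0.049 (GRIA4) in OPC. D2 minus D1 ranged from -0.00232 to 0.022 for GRIA2, and its group difference from -0.036 to 0.013 for GRIA2 and -0.035 to 0.042 for GRIA4. Genes called ranged from 0 to 1 in D2 MSN, PV/Th, oligodendrocytes and microglia, 0 to 0 in eccentric MSN and 0 to 2 in OPC. OVT73 over control for GRIA1 ranged from -0.00461 to 0.28 in D1 MSN, -0.0715 to 0.24 in D2 MSN, -0.35 to 0.14 in neuroblasts, -0.27 to 0.030 in astrocytes and -0.24 to 0.13 in the DTHD1 cluster. For GRIA2 it ranged from -0.073 to 0.15 in PV/Th and -0.59 to 0.020 in neuroblasts, and for GRIA3 from -0.051 to 0.11 in eccentric MSN and -0.00627 to 0.15 in oligodendrocytes.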

Other observations

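SST/NPY and cholinergic interneurons had too few nuclei in some libraries for a test. SST/NPY interneurons drew 74.4% of their subunit UMIs from GRIA4, 9.7% from GRIA1, 7.6% from GRIA2 and 8.3% from GRIA3, with GRIA4 at 6267 ± 1270 CPM (SD, n = 7). Cholinergic interneurons were more even, with 36.9% from GRIA4 and 20.7% to 21.4% from each other subunit. Their GRIA4 level was 1067 ± 198 CPM, from 833 to 1347, below every SST/NPY library. The cholinergic libraries held 4 to 14 nuclei and were uneven in depth. The highest value, in control 2, rested on 38 UMIs of GRIA4. Control 2 and OVT73 1 were shallow, at medians of 1942.5 and 5458.5 UMIs per nucleus.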
